A study of Mus musculus with 6 samples.

Results

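Plasma cells and B cells leave their mark in tissue RNA through the constant genes of the antibody chains, and these were followed in mouse colon after interleukin-22 (IL-22). The set was chosen by name: the heavy chain genes Igha, Ighm, Ighg1, Ighg2b, Ighg2c and Ighg3, the light chain genes Igkc, Iglc1 and Iglc2, and Jchain, the joining chain of polymeric antibodies. Of these 10 names, 9 were measured among 35275 genes. Jchain was listed under its older symbol Igj and was matched by gene ID. Iglc1 was matched by neither symbol nor gene ID, so it was not analysed here. All 9 measured genes passed the filter on low counts.

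The colon came from C57BL/6 mice, and 3 groups of 2 libraries were compared 6 h after treatment. One group had received phosphate-buffered saline (PBS), another WT IL-22, the wild-type cytokine, and the third 22-B3, an engineered IL-22 variant, each protein at 200 µg. The sources used here give neither age nor sex, and do not say that the libraries of a group came from separate mice. The p-values therefore rest on library-to-library spread, part of which may be technical.

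The intestinal lining holds many plasma cells that secrete immunoglobulin A (IgA). The J chain links IgA units into dimers and closes IgM pentamers, and the epithelial receptor Pigr binds these J chain-containing polymers and carries them into the gut lumen. IL-22 acts on epithelial and other non-haematopoietic cells, since haematopoietic cells lack its receptor subunit Il22ra1.

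The difference between antibodies that take up the J chain and those that do not is visible in the reference sequence at the end of the secreted heavy chains. The last 60 coding bases, stop codon included, are shown for 4 heavy chains because the ones of IgA and IgM carry a tailpiece and those of IgG do not (GENCODE M21 transcripts, GRCm38, minus strand of chromosome 12). Capitals mark the cysteine codon next to the last amino acid, the residue through which the tailpiece bonds to the J chain.
Igha: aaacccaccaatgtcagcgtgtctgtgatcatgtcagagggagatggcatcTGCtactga
Ighm: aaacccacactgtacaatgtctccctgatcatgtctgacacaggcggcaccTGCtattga
Ighg1: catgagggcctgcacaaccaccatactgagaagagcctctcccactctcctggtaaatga
Ighg2b: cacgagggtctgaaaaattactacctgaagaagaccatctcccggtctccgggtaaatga
The stretches lie at chr12:113258768-113258827, chr12:113420867-113420926, chr12:113328976-113329035 and chr12:113306389-113306448 in that order.

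Some members share sequence, which bears on how far their reads can be assigned. The last 90 coding bases of Iglc2 (chr16:19198536-19198625) and of Iglc3, another gene of that locus (chr16:19065365-19065454) show how close these lambda genes are, with capitals marking bases of Iglc3 that differ from Iglc2.
Iglc2: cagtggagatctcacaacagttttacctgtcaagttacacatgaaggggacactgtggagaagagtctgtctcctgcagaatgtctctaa
Iglc3: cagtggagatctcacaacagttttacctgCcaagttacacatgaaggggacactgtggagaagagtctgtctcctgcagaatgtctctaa
Over their whole coding regions Iglc2 and Iglc3 were 96.2% identical, and 15.2% of the 50-base windows of Iglc2 also occurred in Iglc3. The first 90 coding bases of Ighg2b (chr12:113307844-113307933) and Ighg2c (chr12:113288843-113288932) are the second close pair, with capitals marking bases of Ighg2c that differ from Ighg2b.
Ighg2b: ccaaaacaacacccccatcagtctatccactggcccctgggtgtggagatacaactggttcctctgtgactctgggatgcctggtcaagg
Ighg2c: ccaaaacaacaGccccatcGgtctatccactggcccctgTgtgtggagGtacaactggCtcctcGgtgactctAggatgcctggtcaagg
Ighg2b and Ighg2c were 85.6% identical over the secreted coding regions, and 5.83% of the 50-base windows of Ighg2b occurred in Ighg2c. The levels of Iglc2, Ighg2b and Ighg2c are therefore given as uncertain. For Igha, Ighm, Ighg1, Ighg3, Igkc and Jchain, 0 windows occurred in transcripts of another gene. Windows came from coding regions alone, in the secreted form for heavy chains. For Jchain that region is 480 bases, where the counted gene model has 1393. The rest of that model and the membrane part of Ighm were not compared.

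Total counts ran from 17428528 to 22081904 per library, and the 9 genes took 0.133% to 0.218% of them. The PBS libraries resembled each other more than other pairs did. Immunoglobulin variable genes, whose use differs between B cell clones, correlated at r = 0.963 between the PBS libraries (log2 counts, 79 variable genes reaching 50 counts over the pair). Every other pair of libraries gave an r between -0.147 and 0.165. These correlations are across genes, which are not independent replicates, and the labels do not say whether both PBS libraries came from 1 animal. The call below is therefore given also with the PBS libraries summed into 1. Epcam, Vil1, Myh11 and Acta2, markers of epithelium and smooth muscle, were present in every library. Summed smooth muscle markers stood at 14100 and 14231 CPM (counts scaled to library size by TMM, the trimmed mean of M-values) with PBS, 7119 and 10039 CPM after WT IL-22, and 9886 and 12231 CPM after 22-B3. This sum thus moved with the groups. Of its 10 genes, 10 had a log2 change below 0 against PBS in each treated group, in comparisons that share the PBS libraries. The edgeR fit called 4 of them lower after WT IL-22 and 0 after 22-B3. Of all genes tested it called 6.74% lower after WT IL-22 and 0.154% lower after 22-B3. Myh11 overlapped PBS after WT IL-22, with a log2 change of -0.11. The part of smooth muscle in the results below was not tested.

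Most antibody transcripts in this colon were of IgA and of the kappa light chain. On the FPKM scale (fragments scaled to gene length and depth), the PBS libraries had 1626 ± 134 FPKM of Igkc, the kappa constant gene, 719 ± 77.9 FPKM of Igha, the constant gene of IgA, and 343 ± 14.0 FPKM of Jchain (mean ± SD, n = 2). These were followed by Ighg1 at 19.8 ± 2.27, Ighm at 18.9 ± 1.148, Iglc2 at 9.52 ± 1.99 and Ighg2b at 6.37 ± 1.995 FPKM. Ighg1 and Ighm did not differ beyond their spread, and the ranges of 1 SD around Iglc2 and Ighg2b overlapped. Ighg2c at 0.318 ± 0.214 and Ighg3 at 0.156 ± 0.221 FPKM were the lowest and overlapped too. The order Igkc, Igha, Jchain held on the FPKM scale in each of the 6 libraries. This scale divides by gene length, 323 bases for Igkc and 1034 for Igha. On counts Igha exceeded Igkc in each library, 1.39 to 2.42 times.

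Igha made up 93.3% to 96.0% of the counts of the 6 heavy chain genes. The lowest library was PBS replicate 1, at 93.3% (95% Wilson interval 92.9% to 93.6%), and the highest 22-B3 replicate 2, at 96.0% (95.7% to 96.4%). Such intervals cover counting error only, since reads without molecular identifiers are not independent molecules. On average Igha held 93.3% ± 0.0678 with PBS, 94.7% ± 1.504 after WT IL-22 and 96.0% ± 0.106 after 22-B3. The 4 gamma genes together held 3.28% ± 0.232, 2.498% ± 0.198 and 2.002% ± 0.306 in that order. The libraries of the 3 groups did not overlap in this share, which was not tested. Igha is the largest part of its denominator, so the share also depends on the level of Igha. In no comparison did edgeR call any of the 4 gamma genes. Against PBS, Ighg1 and Ighg2b had log2 changes below 0 in both treated groups, and Ighg2c and Ighg3 above 0. Igkc had 71.2 to 143 times the counts of Iglc2, and both extremes were 22-B3 libraries. Iglc2 is the only lambda constant gene analysed here, so this is not the balance of kappa and lambda transcripts.

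**Figure D1:**
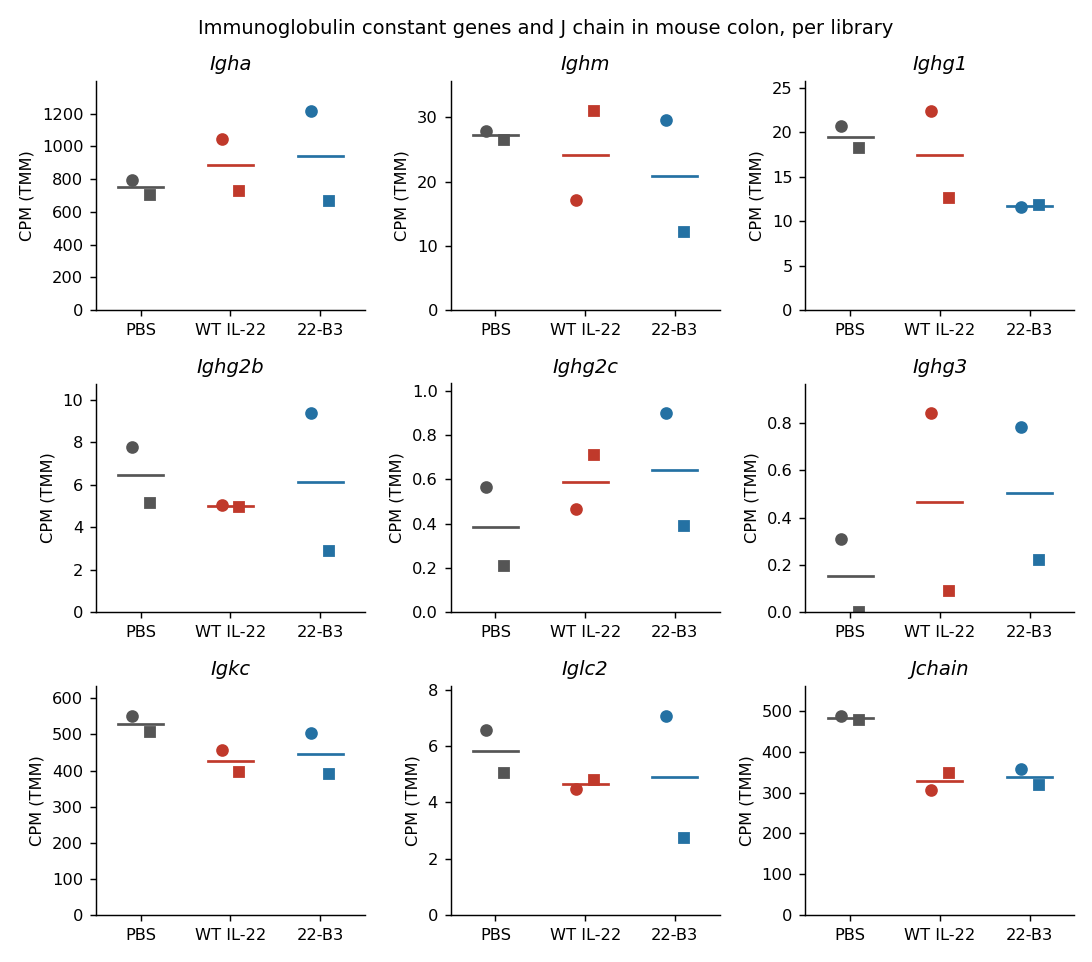
TMM-scaled counts (CPM, y axis) of the 9 genes in the PBS, WT IL-22 and 22-B3 groups (x axis). Circles are replicate 1, squares replicate 2 and bars the group means. Jchain and Igkc lay below both PBS libraries in all 4 treated libraries, while Igha spread from 665 to 1216 CPM within the 22-B3 pair.

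Between groups, Jchain was the member whose change passed the test. It fell after WT IL-22, and stood about as low after 22-B3 without passing. Igha, the most abundant heavy chain gene, did not follow it, so the ratio of Igha to Jchain counts was higher in each treated library than in both PBS libraries. Ighg1 was lowest in the 22-B3 libraries. Igkc was a little lower in every treated library without passing, and for Ighm, Ighg2b, Ighg2c, Ighg3 and Iglc2 no difference was detectable at this depth and replication.

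Jchain (ENSMUSG00000067149, chromosome 5, 88520512 to 88527891, minus strand, mm10) had 488 and 477 CPM in the PBS libraries, 307 and 347 CPM after WT IL-22, and 357 and 318 CPM after 22-B3. All 4 treated libraries thus lay below both PBS libraries, and the treated groups overlapped each other. The means were 482 ± 8.02 CPM with PBS, 327 ± 28.5 CPM after WT IL-22 and 337 ± 27.7 CPM after 22-B3 (SD, n = 2). Against PBS the log2 change was -0.56 after WT IL-22 (SE 0.16, 95% interval -0.91 to -0.21, edgeR adjusted p = 0.0427) and -0.52 after 22-B3 (SE 0.16, 95% interval -0.87 to -0.16, edgeR adjusted p = 0.154). These comparisons share the PBS libraries. Between 22-B3 and WT IL-22 it was 0.04, with a 95% interval of -0.31 to 0.40 (edgeR adjusted p = 0.943).

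After WT IL-22, 1 of the 9 members was called, lower, where 16.6% of the 15628 genes tested were called and 6.74% were called lower. After 22-B3 edgeR called 0 of 9 against PBS, where 1.1% of all genes were called and 0.154% were called lower, and 2 members, Jchain and Ighg1, had an unadjusted p under 0.05. DESeq2 called Jchain there (DESeq2 adjusted p = 0.036), in a comparison where it called 4.34% of all genes. Between 22-B3 and WT IL-22 edgeR and DESeq2 each called 0 of 9, with 0 at an unadjusted p under 0.05 by edgeR and 1 by DESeq2, while edgeR called 0.102% of all genes, 0.0704% lower. The call for Jchain after WT IL-22 did not hold with the PBS libraries summed (log2 change -0.56, edgeR adjusted p = 0.288), nor when any 1 library of the compared groups was left out: the edgeR adjusted p was 0.279 and 0.277 leaving out PBS replicate 1 or 2, and 0.231 and 0.074 leaving out replicate 1 or 2 of WT IL-22. The log2 change stayed between -0.50 and -0.68. Each of these fits leaves a group with a lone library, which is assumed to vary like the other groups, and the share of all genes called fell to 0.95% with PBS summed, to 0.903% and 0.837% without a PBS library, and to 2.93% and 9.62% without a WT IL-22 library. Calls were thus lost across all genes, not for Jchain alone. Column totals alone and limma on log2 FPKM lost the call too (adjusted p = 0.0574 and 0.0707). In bulk tissue, fewer cells of a type and less RNA per cell cannot be told apart.

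**Figure D2:**
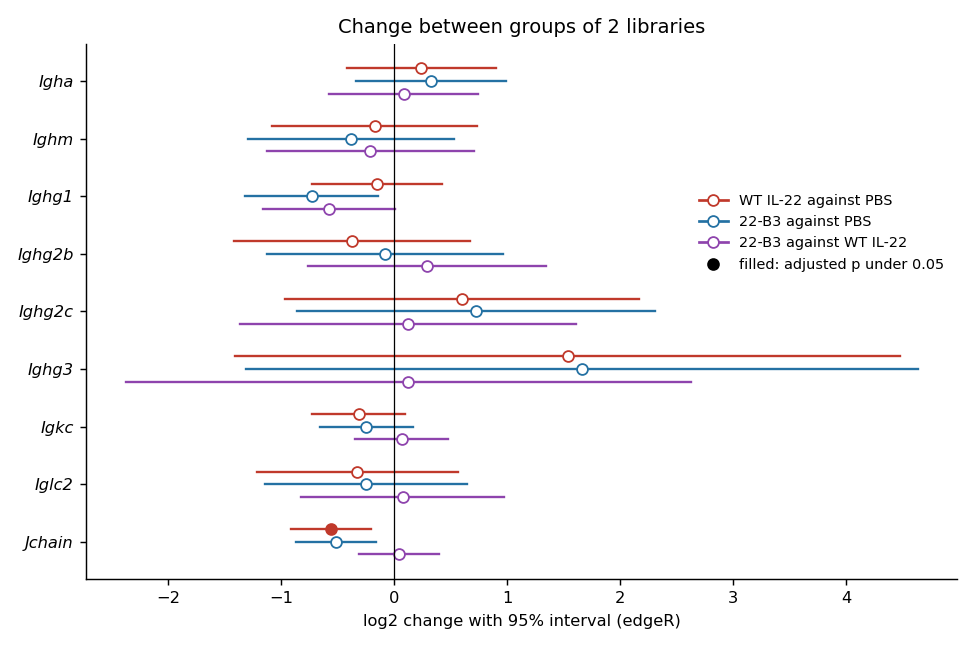
Log2 change (x axis) of each of the 9 genes (y axis) in the 3 comparisons, with 95% intervals from edgeR's quasi-likelihood fit. The filled point is the one past an adjusted p of 0.05, Jchain after WT IL-22 at -0.56, and the intervals of the rare Ighg2c and Ighg3 are the widest.

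Among the heavy chains, Igha (ENSMUSG00000095079, chromosome 12, 113258768 to 113260236, minus strand) had 795 and 705 CPM with PBS, 1045 and 729 CPM after WT IL-22, and 1216 and 665 CPM after 22-B3. Replicate 1 of both treated groups was above the PBS libraries, and 22-B3 replicate 2 was below them, so the groups overlapped. The log2 change was 0.24 after WT IL-22 (SE 0.29, 95% interval -0.42 to 0.90, edgeR adjusted p = 0.586) and 0.33 after 22-B3 (SE 0.29, 95% interval -0.34 to 0.99, edgeR adjusted p = 0.567). Its sign turned without WT IL-22 replicate 1, at -0.07, and without 22-B3 replicate 1, at -0.20.

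Ighm, the constant gene of IgM, which naive B cells carry on their surface and plasma cells secrete, was uneven within both treated groups. It had 27.9 and 26.5 CPM with PBS, 17.2 and 31.0 CPM after WT IL-22, and 29.6 and 12.1 CPM after 22-B3. The groups overlapped, and the log2 changes against PBS were -0.17 and -0.38 (edgeR adjusted p = 0.789 and 0.632). Ighm and Igha were both lowest in 22-B3 replicate 2, but WT IL-22 replicate 1, with the second highest Igha, had the second lowest Ighm.

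The gamma genes encode IgG, the main antibody of serum. Ighg1 had 20.7 and 18.2 CPM with PBS, 22.4 and 12.6 CPM after WT IL-22, and 11.6 and 11.9 CPM after 22-B3. Both 22-B3 libraries lay below all other libraries, with a log2 change of -0.73 against PBS (SE 0.26, 95% interval -1.32 to -0.14, edgeR adjusted p = 0.206) and of -0.58 against WT IL-22 (SE 0.26, 95% interval -1.16 to 0.01, edgeR adjusted p = 0.51). Of all genes tested, 25.5% had both 22-B3 libraries below both PBS libraries, as 3 members did, and 17.3% had them below both WT IL-22 libraries, as 1 member did.

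Ighg2b, uncertain against Ighg2c, had 7.81 and 5.15 CPM with PBS, 5.05 and 4.98 CPM after WT IL-22, and 9.37 and 2.90 CPM after 22-B3, so that the 22-B3 pair held the highest and the lowest value. Its log2 change was -0.37 after WT IL-22 and -0.08 after 22-B3 (edgeR adjusted p = 0.599 and 0.943). Ighg2c, the IgG2 gene that C57BL/6 mice carry in place of Ighg2a, had 4 to 16 counts in each library. Ighg3 had 0 to 18 counts, with the 0 in PBS replicate 2, where 3 counts would be 0.156 CPM. Their log2 changes against PBS of 0.60 and 0.72 for Ighg2c and of 1.53 and 1.66 for Ighg3 had intervals that ran from -0.96 and -0.86, and from -1.41 and -1.31, to above 2. With a library at 0, the fitted value of Ighg3 depends on the prior count. Ighe, the IgE gene, had 0 to 7 counts per library and was not tested.

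Of the light chains, Igkc (ENSMUSG00000076609, chromosome 6, 70726435 to 70726757, plus strand) had 552 and 508 CPM with PBS, 457 and 395 CPM after WT IL-22, and 503 and 390.4 CPM after 22-B3. All 4 treated libraries were below both PBS libraries, by a narrow margin in 22-B3 replicate 1. The log2 change was -0.31 after WT IL-22 (SE 0.18, 95% interval -0.72 to 0.10, edgeR adjusted p = 0.25) and -0.25 after 22-B3 (SE 0.18, 95% interval -0.66 to 0.17, edgeR adjusted p = 0.489). Of all genes tested, 35.3% had both WT IL-22 libraries below both PBS libraries, as did 4 members, Ighg2b, Igkc, Iglc2 and Jchain. Iglc2, uncertain against Iglc3, had 6.57 and 5.05 CPM with PBS, 4.48 and 4.80 CPM after WT IL-22, and 7.07 and 2.73 CPM after 22-B3. Its log2 changes were -0.32 and -0.25 (edgeR adjusted p = 0.586 and 0.762), and the order of the 22-B3 libraries was that of Ighg2b.

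Ratios of counts within a library do not depend on how libraries are scaled to each other, and they were chosen after the levels had been seen. Igha per Jchain was 1.63 and 1.48 with PBS, 3.402 and 2.10 after WT IL-22, and 3.41 and 2.09 after 22-B3. Each treated library exceeded both PBS libraries, and the treated groups spanned the same range. The ratio was 1.72-fold higher after WT IL-22 and 1.72-fold higher after 22-B3 (geometric means, 2-sided exact permutation p = 0.333 in each case, the smallest that 2 against 2 libraries allow). Igha per Igkc showed the same order, at 1.44 and 1.39 with PBS, 2.28 and 1.84 after WT IL-22, and 2.42 and 1.70 after 22-B3, which is 1.45-fold and 1.43-fold higher (exact permutation p = 0.333). Igkc per Jchain was 1.13 and 1.07 with PBS, 1.49 and 1.14 after WT IL-22, and 1.41 and 1.23 after 22-B3. WT IL-22 replicate 2 thus stood barely above PBS replicate 1.

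**Figure D3:**
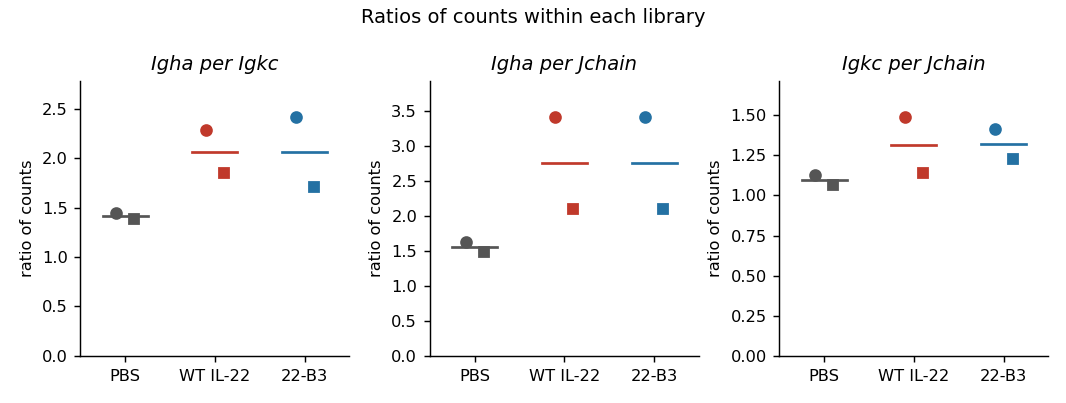
Ratio of the counts of 2 genes within each library (y axis) by group (x axis), with circles for replicate 1, squares for replicate 2 and bars for group means. Igha per Jchain was above both PBS libraries (1.63 and 1.48) in all 4 treated libraries, and replicate 1 of each treated group was the higher.

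The variable gene segments, which are joined to the constant genes in the same transcripts, gave a second reading of each chain. Summed over 114 heavy chain variable genes (Ighv), the libraries had 243 and 229 CPM with PBS, 308 and 259 CPM after WT IL-22, and 376 and 209 CPM after 22-B3. The 2 highest and the lowest library were those of Igha, while WT IL-22 replicate 2 lay above both PBS libraries, between which its Igha fell. Summed kappa variable genes (Igkv, 105 genes) had 493 and 494 CPM with PBS, 447 and 387 CPM after WT IL-22, and 505 and 379 CPM after 22-B3. Replicate 2 of each treated group was lowest, as for Igkc, but 22-B3 replicate 1 lay above both PBS libraries, where Igkc lay below them. The 3 lambda variable genes (Iglv) parted from Iglc2: their sum was 36.2 and 31.8 CPM with PBS, 46.2 and 108 CPM after WT IL-22, and 97.4 and 31.7 CPM after 22-B3. Iglc1 and Iglc3, further constant genes of the lambda locus, were matched by neither symbol nor gene ID, so they were not analysed here.

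**Figure D4:**
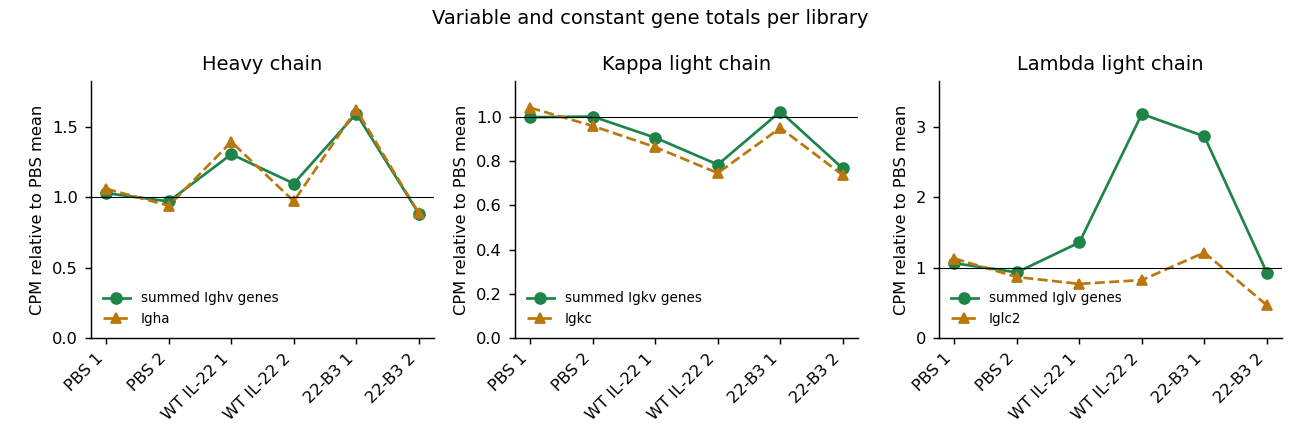
CPM relative to the mean of the PBS libraries (y axis) in each of the 6 libraries (x axis) for summed variable genes (circles) and the constant gene of the same chain (triangles). Igha and the heavy chain variable genes were both highest in 22-B3 replicate 1, and the lambda variable genes reached 108 CPM in WT IL-22 replicate 2, where Iglc2 stood at 4.80 CPM.

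Most B cell genes had lower values in both treated groups, but edgeR called none of them. Of 23 B cell genes, 21 had a log2 change below 0 after WT IL-22 and 21 after 22-B3, with medians of -0.79 and -1.03 beside -0.01 and 0.01 over all genes. edgeR called 0 of 23 in each comparison, where it called 16.6% of all genes after WT IL-22 and 1.1% after 22-B3. At an unadjusted p under 0.05 were 7 and 6 of the 23. The share of all genes at such a p is not given here. This count and those of the lists below are therefore not read as an excess. DESeq2 called 2 after WT IL-22, Ms4a1 lower (adjusted p = 0.0276) and Blnk higher (0.0461), and 2 after 22-B3, Ms4a1 and Cd79b, both lower (0.0127 and 0.016). Over all genes DESeq2 called 21.3% after WT IL-22 and 4.34% after 22-B3. Ms4a1, the B cell surface protein CD20, had 12.4 and 12.7 CPM with PBS, 4.77 and 7.15 CPM after WT IL-22, and 7.07 and 2.51 CPM after 22-B3 (log2 changes of -1.08 and -1.39). Cd79a, a signalling chain of the B cell receptor, had 14.5 and 15.7, 8.60 and 9.64, and 12.003 and 2.73 CPM in the same order. The B cell markers Ms4a1, Cd79a and Pax5 were detected in every library. Summed over the list the ranges were 206 to 211 CPM with PBS, 198 to 200.1 CPM after WT IL-22 and 140.3 to 220.0 CPM after 22-B3, sums in which Blnk, an adaptor of B cell receptor signalling, was the largest term at 84.7 to 134 CPM and lay above both PBS libraries in each treated library.

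Of 19 plasma cell genes, edgeR called 1 after WT IL-22, lower, and 0 after 22-B3 (7 and 1 at an unadjusted p under 0.05), with median log2 changes of -0.14 and -0.12. Over all genes edgeR called 6.74% lower after WT IL-22 and 0.154% lower after 22-B3. DESeq2 called 0 after 22-B3 and 3 after WT IL-22: Ssr4 and Prdx4 lower, and Xbp1, a transcription factor of secretory cells that plasma cells need, higher (log2 change 0.52, DESeq2 adjusted p = 0.0114). In the edgeR fit Xbp1 had a log2 change of 0.51 (adjusted p = 0.0531). The gene that passed there was Ssr4, a subunit of the translocon-associated complex of the endoplasmic reticulum that many secretory cells use. It had 251 and 274 CPM with PBS, 128 and 152 CPM after WT IL-22, and 134 and 248 CPM after 22-B3 (log2 change -0.91 after WT IL-22, edgeR adjusted p = 0.0459). Mzb1, an endoplasmic reticulum protein of B and plasma cells that helps to assemble antibodies, was not called. It had 9.45 and 10.7, 6.21 and 7.51, and 7.85 and 6.01 CPM in that order. Its log2 changes were -0.55 and -0.54 (edgeR adjusted p = 0.112 and 0.25). The other defining markers, Sdc1, Tnfrsf17 and Derl3, changed by -0.18, -0.14 and -0.10 after WT IL-22, and by -0.12, -0.37 and -0.42 after 22-B3. Prdm1, in the same list, changed by 0.94 and 0.45 (edgeR adjusted p = 0.084 and 0.503). Of the 19 genes, 5 had a log2 change above 0 after WT IL-22 and 8 after 22-B3. The most abundant genes of the list, Txndc5, Xbp1, Sdc1 and Ssr4, are also made by epithelial cells. The summed list ranged over 1524 to 1604 CPM with PBS, 1400 to 1509 CPM after WT IL-22 and 1292 to 1623 CPM after 22-B3. Of 8 germinal centre genes tested, 1 fell after WT IL-22, Rgs13, a regulator of G protein signalling (log2 change -0.70, edgeR adjusted p = 0.0464). DESeq2 called 0 of the 8 there.

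Genes that bring plasma cells to the gut or carry their product were lower in part. Of 17 tested genes of IgA transport and homing, 4 fell after WT IL-22, where edgeR called 6.74% of all genes lower. After 22-B3 edgeR called 0 of the 17 (5 at an unadjusted p under 0.05). DESeq2, which called 4.34% of all genes there, called 1, Cxcr4 (adjusted p = 0.00879). Ccl28, an epithelial chemokine that attracts IgA plasma cells through Ccr10, had 138 and 145 CPM with PBS, 70.1 and 71.0 CPM after WT IL-22, and 111 and 84.5 CPM after 22-B3. Its log2 change was -1.004 after WT IL-22 (edgeR adjusted p = 0.00691) and -0.53 after 22-B3 (edgeR adjusted p = 0.152). Tnfsf13, the plasma cell survival factor APRIL, fell by 0.95, Cxcr4, a chemokine receptor of plasma cells and many other leukocytes, by 0.97, and Fcgrt, the neonatal Fc receptor for IgG, by 0.71 on the log2 scale after WT IL-22 (edgeR adjusted p = 0.0209, 0.0462 and 0.0166). Pigr had 2695 and 2680 CPM with PBS, 3334 and 2756 CPM after WT IL-22, and 3956 and 2461 CPM after 22-B3. Its log2 changes were 0.18 and 0.26 (edgeR adjusted p = 0.645 and 0.607), and its highest, second highest and lowest libraries were those of Igha.

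Some markers of other cell types were called after WT IL-22 as well. Over all lists outside the members, edgeR called 21 of 124 tested genes there, 17 of them lower. Of all genes tested it called 16.6%, and 6.74% lower. After WT IL-22, by edgeR, 1 of 11 T cell genes fell, as did 4 of 10 smooth muscle genes and 1 of 6 fibroblast genes. Of 10 macrophage genes 4 fell and 1 rose, of 12 epithelial genes 2 rose and 1 fell, and of 8 endothelial and blood cell genes 1 rose. DESeq2, which called 21.3% of all genes there, called more for smooth muscle, 7 of 10 lower, and for epithelium, 3 of 12 higher and 2 lower. After 22-B3, edgeR called 0 of 124 list genes against PBS, where it called 1.1% of all genes. Of the 124, 25 had an unadjusted p under 0.05. DESeq2, which called 4.34% of all genes there, called 5 of the 124 lower: Ms4a1, Cd79b, Cxcr4, Dcn, a fibroblast proteoglycan, and Lyz2, a lysozyme of macrophages. Their part in the results for the antibody genes was not tested.

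**Figure D5:**
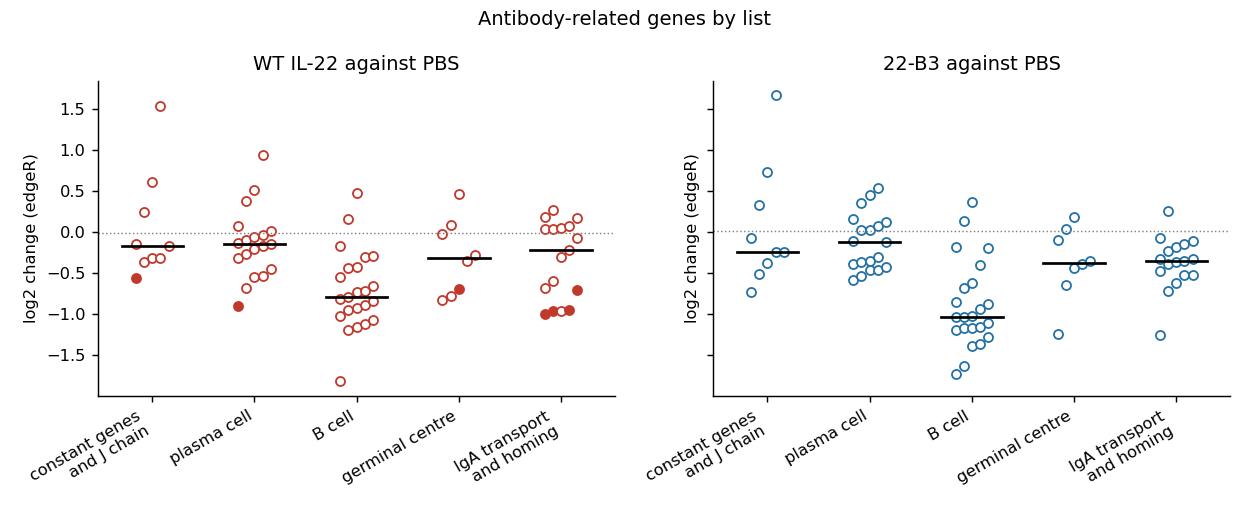
Log2 change against PBS (y axis) of each tested gene of 5 lists (x axis) for WT IL-22 and 22-B3. Filled points passed an adjusted p of 0.05, bars are list medians and the dotted line is the median of all genes. The B cell list has the lowest medians, -0.79 and -1.03.

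The genes with the most similar pattern over the 6 libraries were sought among 11315 genes with at least 5 CPM that are not immunoglobulin genes. By Pearson's r of log2 CPM with the mean of the standardized members, they included Mpp7 (0.987), Map3k14 (0.972), Map4k2 (0.969) and B930095G15Rik (0.966). With Igha alone they were 9930104L06Rik (0.994), Il17re (0.992), Frmd4a (0.992), Syde1 (0.988) and Brat1 (0.987). These are the highest of 11315 correlations over 6 points, so part of their height comes from the ranking. The members themselves correlated at r from -0.52 (Ighg3 and Jchain) to 0.98 (Ighg2b and Iglc2), so their mean is not 1 shared pattern. The points share library and scaling, and the values are given as a description.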

How the data were processed

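RNA-seq of mouse colon was analysed from the deposited read count table, which per the file headers holds whole-number counts per gene for 6 libraries, without normalization. The deposited FPKM table holds values equal to those counts divided by the deposited gene length and column total, scaled by the authors. The submitters' processing notes name STAR 2.5 and mm10, and per the labels' protocols libraries were made from 0.2 µg RNA after mRNA enrichment. The read counter, annotation and strand setting are not given in the sources used here. The deposited gene models of Igha, Ighg1, Ighg2b, Ighg3 and Igkc have the coordinates and length of the secreted coding region. Those of Ighg2c (1212 bases) and Ighm (1424 bases) extend into the region of the membrane forms, whose coding lengths are 1214 and 1430 bases. Shares among the heavy chain genes thus compare models of unlike extent. The models of Jchain and Iglc2 include untranslated bases. Reads outside these models are not in the counts, and membrane and secreted forms cannot be separated.

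Counts were fitted with edgeR 4.0.16 (R 4.3.3): filterByExpr (15628 genes), TMM, 1 mean per group over all 6 libraries, robust quasi-likelihood test, Benjamini-Hochberg over all genes tested, called at an adjusted p under 0.05. CPM are TMM-scaled. The procedure was tested on simulated data with independent libraries and with changes larger than that of Jchain. That test does not bear on changes of the size seen for Jchain, nor on libraries that are not independent. Members and lists were chosen with earlier results of these data known. All members are named. From each list, genes that passed and the 4 most abundant could be named, besides defining markers of cell types. Cd79b, Dcn, Lyz2, Prdm1 and Prdx4 were named after their values were seen. Ratios of counts were chosen after values were seen. In all, 18 alternatives were run, among them DESeq2 1.42.0 and limma 3.58.1 on log2(FPKM + 1). Counting Iglc3 with the lambda genes could not be run, since Iglc3 was matched by neither symbol nor gene ID. Exact permutation tests used SciPy 1.17.1. Values of some single genes that the naming rule covers are not reported here.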

Additional observations from a re-analysis of the deposited data

How the results depend on the processing

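Of 484 refits of the log2 changes of the 9 genes, 434 kept direction and side of the threshold, 9 lost the call for Jchain with WT IL-22, 1 gained it with 22-B3, and 40 turned the sign of a change that had not passed. Members called with WT IL-22 were 0 with column totals alone, with limma on log2 FPKM (pseudocount 1 or 0.1, and 1 without the low-count filter) and with the PBS libraries summed, and 0 to 1 with 1 library left out. With 22-B3 against PBS, DESeq2 called 1. The adjusted p of Jchain with WT IL-22 ran from 0.00519 to 0.288 over the alternatives, and with 22-B3 from 0.036 to 0.79. The cause was not tested. Upper-quartile scaling moved the median of all genes to -0.13 and -0.10 against PBS, and Jchain to -0.67 and -0.63. With the replicate number as a block, 1 member was called with WT IL-22, 0 with 22-B3 and 0 between the proteins, and the adjusted p of Jchain with 22-B3 was 0.0547. Of 124 tested list genes, edgeR called 21 with WT IL-22, 0 with the PBS libraries summed (21 at an unadjusted p under 0.05, in a fit that called 0.95% of all genes) and 33 with the block, which called 7 with 22-B3. Same-numbered libraries deviated from their group means together at r = 0.0339, 0.0394 and 0.2, and no label ties them, so the numbers were not taken as pairs.

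Between 22-B3 and WT IL-22 the sign turned for Jchain with column totals alone (-0.0134), for Iglc2 under the replicate block (-0.0244), and on log2 FPKM with pseudocount 1, with or without the filter, for Igha (-0.018), Igkc (-0.0015), Iglc2 (-0.10) and Jchain (-0.018), and with pseudocount 0.1 for Igha (-0.0181), Igkc (-0.00155), Iglc2 (-0.14), Jchain (-0.018), Ighg2b (-0.00035) and Ighg2c (-0.0027).

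Leaving out 1 library at a time turned further signs. With WT IL-22 the log2 change ran from -0.0658 to 0.45 for Igha, -0.69 to 0.17 for Ighm, -0.65 to 0.18 for Ighg1 and -0.78 to 6.21 for Ighg3. With 22-B3 it ran from -0.20 to 0.70 for Igha, -1.19 to 0.13 for Ighm, -1.19 to 0.53 for Ighg2b, -0.017 to 1.60 for Ighg2c and -1.12 to 0.28 for Iglc2. Between the proteins it ran from -0.42 to 0.45 for Igha, -0.99 to 0.29 for Ighm, -0.79 to 0.90 for Ighg2b, -0.59 to 0.60 for Ighg2c, -1.03 to 2.42 for Ighg3, -0.13 to 0.24 for Igkc, -0.77 to 0.60 for Iglc2 and -0.0464 to 0.13 for Jchain. With counts of 0 to 18 per library, depth limits Ighg2c and Ighg3.

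For the share of kappa among light chains, counting Iglc3 with the lambda genes was not run, since Iglc3 was matched by neither symbol nor gene ID.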
